A study of Mus musculus with 12 samples.

Results

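Whole mouse hearts were examined for 10 genes associated with the matrifibrocyte, the cartilage-like state that fibroblasts of a heart scar can take: Comp, Cilp, Cilp2, Chad, Cytl1, C1qtnf3, Angptl7, Sox9, Acan and Fmod. The genes were taken by symbol from the 53801 genes in the deposited tables. All but C1qtnf3 were listed by name, and C1qtnf3 was chosen by its rise from day 1 to day 7 in these same libraries. It is therefore described without a test, and the counts of members below cover the other 9. All 10 passed the filter on low counts, which left 15306 genes for testing, and C1qtnf3 passed it only through the group in which it was high. The hearts came from C57BL/6N mice in 3 groups, each of 4 hearts with 1 RNA-sequencing library per heart. The groups were named sham, day 1 AMI and, a week after surgery, day 7 AMI, where AMI is acute myocardial infarction made by tying off the left anterior descending coronary artery without reperfusion. The methods of the study describe adult male mice and state no genetic change or drug for these 3 groups, and the sources used here do not give the day on which sham hearts were taken. Because each library holds a whole heart, more cells of a type cannot be told apart from more RNA per cell, and scar, border and remote muscle are read together.

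Matrifibrocytes are known from mouse hearts as fibroblasts of the mature infarct scar that carry extracellular matrix genes otherwise typical of cartilage and tendon. In that sequence resting fibroblasts become activated and proliferate soon after infarction, then become contractile, collagen-rich myofibroblasts, and the matrifibrocyte state follows as the scar matures. Cartilage matrix itself is built on type II collagen fibrils, which hold aggrecan, a large proteoglycan that draws in water, while smaller proteins such as COMP, fibromodulin and chondroadherin join the collagen to the rest of the matrix and to cells. SOX9 is the transcription factor that turns on Col2a1 and Acan in chondrocytes.

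Libraries held between 23204551 and 32166517 counts. Counts were scaled with edgeR's TMM method and are given as CPM, counts scaled to a common library total, and 3 counts, used as a floor, equal between 0.0895 and 0.156 CPM. Levels between genes are compared as TPM, which allows for gene length. A gene was called in a comparison when edgeR's quasi-likelihood test gave an FDR (Benjamini-Hochberg) below 0.05 and its level differed by at least 2-fold (FC, fold change). The tissue label was matched by 11 cardiomyocyte markers, whose summed level was between 53891 and 116512 CPM in the 12 libraries. Sham replicate 4 stood apart in atrial genes and sham replicate 2 in erythroid genes, where the summed level of 5 markers ran from 491 to 4450 CPM over the sham hearts. Sham replicate 1 had 27.4% of its counts on mitochondrial genes, against 12.1% to 21.5% in the other 11 libraries, and was the lowest sham heart for Comp, Cilp, Cilp2, Cytl1 and Angptl7. TMM factors did not overlap between groups, at 0.781 to 0.917 for sham, 1.01 to 1.06 for day 1 and 1.10 to 1.17 for day 7. Where the call of a member changed without one of these 3 sham hearts, or with another scaling, the value is given beside it.

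The promoters of 8 members were found in the RefSeq table of build GRCm38.p6. Comp and Sox9 had no entry. Starts here are those of RefSeq. For Acan the RefSeq start lies upstream of the GENCODE start given below (79053483), and the 2 also differ for Cilp2 and Angptl7. The 250 bases directly upstream of the start are shown for 4 members that were higher on day 7, to set next to each other a promoter of a gene with few or no reads before day 7 (C1qtnf3), a promoter rich in CpG (Acan), and those of 2 abundant members (Cilp and Fmod). They lie on the plus strand at chr15:10952082-10952331, chr7:79052976-79053225, chr9:65264930-65265179 and chr1:134037004-134037253, in the order C1qtnf3, Acan, Cilp and Fmod. Each is written 5′ to 3′ up to the base before the start, and capitals mark matches to the motifs that are described after the sequences.
C1qtnf3: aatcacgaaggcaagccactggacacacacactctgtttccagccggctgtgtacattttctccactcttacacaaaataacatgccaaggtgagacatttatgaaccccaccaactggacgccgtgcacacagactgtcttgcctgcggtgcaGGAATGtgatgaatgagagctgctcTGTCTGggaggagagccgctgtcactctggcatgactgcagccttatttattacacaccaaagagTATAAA
Acan: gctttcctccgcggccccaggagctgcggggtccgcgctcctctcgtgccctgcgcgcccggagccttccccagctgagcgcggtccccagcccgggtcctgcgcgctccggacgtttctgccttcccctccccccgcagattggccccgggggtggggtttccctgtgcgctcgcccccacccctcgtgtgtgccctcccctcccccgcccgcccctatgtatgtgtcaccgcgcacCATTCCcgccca
Cilp: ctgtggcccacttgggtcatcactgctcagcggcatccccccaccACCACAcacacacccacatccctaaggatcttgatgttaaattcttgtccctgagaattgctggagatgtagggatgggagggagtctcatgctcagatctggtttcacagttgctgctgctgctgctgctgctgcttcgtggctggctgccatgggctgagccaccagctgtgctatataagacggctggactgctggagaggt
Fmod: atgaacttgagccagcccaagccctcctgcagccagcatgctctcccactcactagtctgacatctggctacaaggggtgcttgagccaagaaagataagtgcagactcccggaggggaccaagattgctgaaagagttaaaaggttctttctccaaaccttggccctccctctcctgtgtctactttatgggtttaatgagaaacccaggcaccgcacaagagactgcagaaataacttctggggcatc

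Both strands were searched for 6 short motifs, which were the SOX core ACAATG, a second SOX form ACAAAG, the RUNX core TGTGGT, the TEAD core GGAATG, the SMAD element CAGACA and the TATA box TATAAA. No pair of these letter strings overlapped in the matches found. In the C1qtnf3 promoter a TEAD match began 96 bases upstream of the start, a SMAD match on the other strand began 71 bases upstream, and the TATA letters took the last 6 bases before the start. The Cilp promoter held a RUNX match on the other strand 205 bases upstream, the Acan promoter a TEAD match on the other strand 12 bases upstream, and the Fmod promoter held none of the 6. Of the promoters not shown, Chad had the TATA letters 28 bases upstream and Angptl7 a SMAD match 205 bases upstream, while Cytl1 and Cilp2 held no match. Neither SOX form occurred in these windows of the 8 members. Among 32851 RefSeq promoters of the same length, 10.7% held ACAATG, 16.5% ACAAAG, 14.0% the RUNX core, 12.6% the TEAD core, 17.1% the SMAD element and 12.4% the TATA letters, so single matches are common. The Acan window was 74.4% G or C with 26 CpG, against a median of 52.4% and 6 CpG over all promoters. The C1qtnf3 window, with 49.2% and 6 CpG, and the Fmod window, with 51.2% and 2 CpG, were near or below that median.

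In sham hearts the most abundant member per length was Cytl1, at 15.2 TPM ± 3.34 (SD, n = 4), whose lowest heart was above the highest heart of every other member. Comp followed at 2.89 TPM ± 1.53, Cilp at 2.60 ± 1.03 and Fmod at 1.77 ± 0.767, and these 3 overlapped. The remaining 6 had means below 1 TPM, and C1qtnf3 and Acan were at 0.035 and 0.025 TPM. On day 7 the order was different. Cilp came first at 68.7 TPM ± 10.5, followed by Comp at 61.3 ± 12.2 and Fmod at 38.6 ± 10.1, each of which overlapped its neighbour. C1qtnf3 came next at 23.7 TPM ± 6.02, with its highest heart (29.8 TPM) below the lowest for Fmod (30.6 TPM). Below it came Cytl1 at 8.91 TPM, Angptl7 at 6.96, Sox9 at 5.31, Acan at 3.49, Chad at 1.86 and Cilp2 at 1.24, and neighbours in this order overlapped. Summed over the 10 members the level was 25.7 TPM ± 7.51 in the sham group and 27.2 TPM ± 6.49 on day 1. On day 7 the sum was 220 TPM ± 27.1, which owes part of its size to C1qtnf3, which was chosen for it.

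On day 1 after AMI, 4 of the 9 members had an FDR below 0.05, of which Acan, Sox9 and Cilp were higher than in sham and Cytl1 was lower, and Acan alone reached a FC of 2. Of the 9, then, 1 was called higher and 0 lower, where 7.79% of all tested genes were called higher and 2.98% lower. Acan passed the filter on low counts through the AMI hearts, in which it was high, so nothing is read from its calls against sham. The median log2 FC of the 9 was 0.12, and that of all tested genes was -0.01. The day 1 hearts were all above the sham hearts for 2 members, Acan and Sox9, a pattern that 19.6% of all tested genes showed in this direction. From day 1 to day 7, 6 of the 9 were called higher and 0 lower (Sox9, Acan, Comp, Fmod, Cilp and Angptl7), against a background of 8.55% and 2.69%. The median log2 FC of the 9 was 2.94, beside 0.02 for all genes, and for 7 of them the day 7 hearts were all above the day 1 hearts, as was so for 23.5% of all genes. Between day 7 and sham the same 6 were called higher and Cytl1 was called lower, where 15.3% of all genes were called higher and 5.88% lower. Acan is among these 6 and in the median that follows, and its call against sham is not read as support. The median log2 FC was 2.58, beside 0.03 for all genes, and 6 members had all day 7 hearts above the sham hearts, against 28.3% of all genes. The comparisons share their groups, so their counts are not separate observations.

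**Figure D1:**
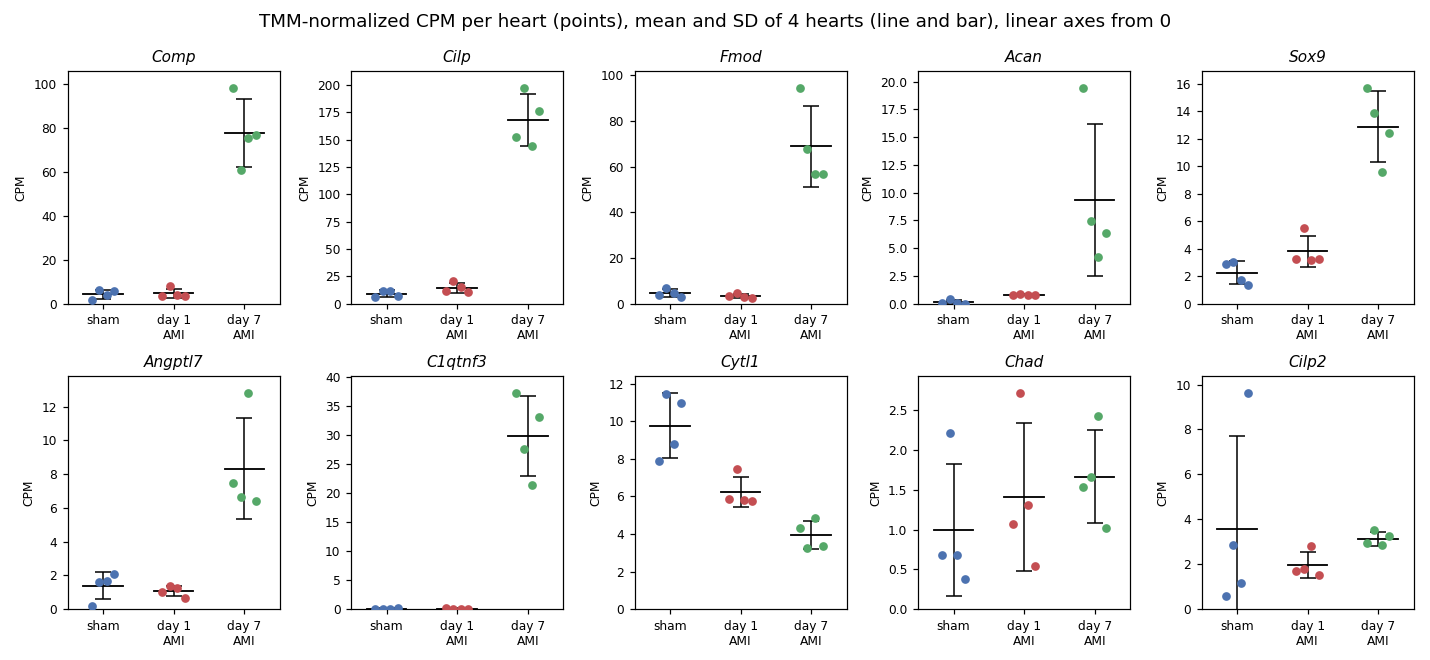
TMM-normalized CPM of the 10 members in each heart on linear axes that start at 0, with blue points for sham, red for day 1 AMI and green for day 7 AMI, and the mean and SD of 4 hearts as a line and bar. Comp, Cilp, Fmod, Acan, Sox9, Angptl7 and C1qtnf3 have all 4 day 7 hearts above the other 8, Cytl1 steps down from group to group, and Chad and Cilp2 overlap between sham and day 7.

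**Figure D2:**
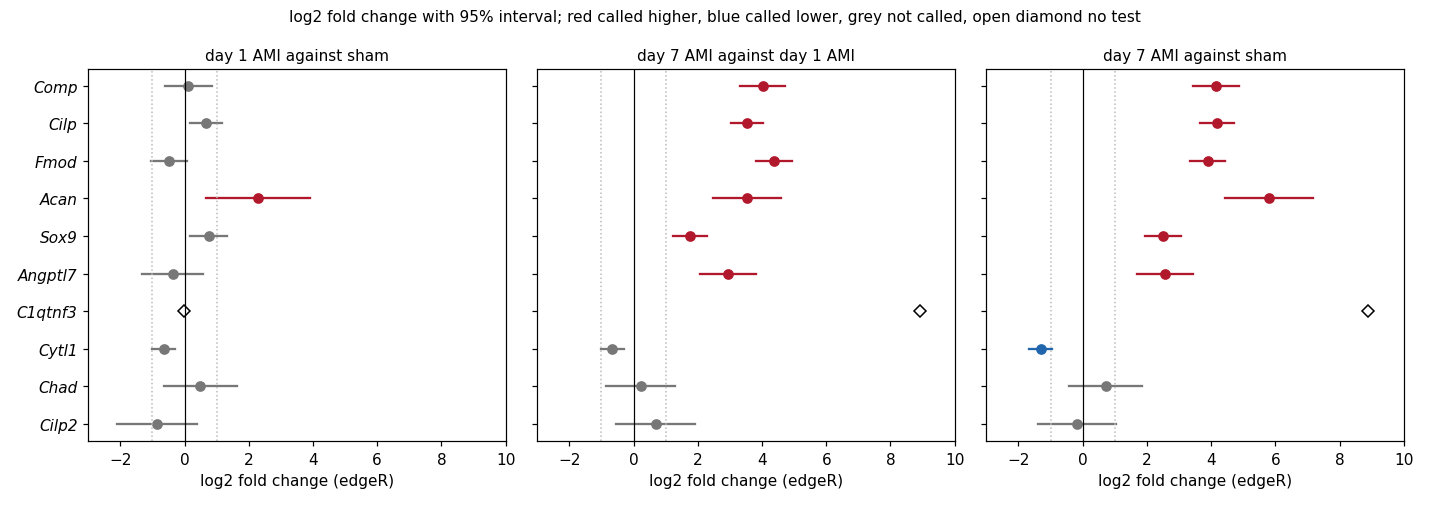
Log2 FC from edgeR (horizontal axis) with 95% intervals for each member in 3 comparisons, in red where called higher, blue where called lower and grey where not called, with dotted lines at a FC of 2. Only Acan is red on day 1 against sham, and 6 members are red in both day 7 panels. The calls of Acan against sham are not read as support. The open diamonds give the fitted values of C1qtnf3, which was not tested.

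Sox9, the chondrogenic transcription factor, lies on chromosome 11 (112782224 to 112787760, plus strand) and was measured at 2.92, 3.04, 1.70 and 1.39 CPM in the sham hearts, at 3.29, 5.52, 3.17 and 3.25 CPM in day 1 AMI, and at 15.7, 13.9, 9.56 and 12.4 CPM in day 7 AMI. The groups did not overlap at either step, although the lowest day 1 heart was close to the highest sham heart. On day 1 Sox9 was 1.68-fold higher than in sham (log2 FC 0.75 ± 0.27 SE, edgeR FDR = 0.0370), which is under the FC of 2 required for a call. On library size alone this difference was 1.02 and was called. On day 7 it was 3.37-fold higher than on day 1 (log2 FC 1.75 ± 0.25, FDR = 6.99e-05) and 5.67-fold higher than in sham (log2 FC 2.50 ± 0.27, FDR = 2.56e-06). Of the 6 members called higher from day 1 to day 7 its log2 FC was the smallest.

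Acan encodes aggrecan, the main proteoglycan of cartilage, and spans chromosome 7 from 79053483 to 79115099 on the plus strand. Sham hearts gave 1, 11, 2 and 0 counts, of which 3 hearts were under the floor, so that sham expression rests on replicate 2 (0.452 CPM). These counts were too few to pass the filter, which Acan passed through the AMI hearts. Its tests against sham are given below but not read as support. Day 1 AMI hearts gave 21, 30, 24 and 24 counts, or 0.803, 0.895, 0.785 and 0.757 CPM, a narrow range above every sham heart. In day 7 AMI the levels were 19.4, 7.42, 4.17 and 6.39 CPM, all above day 1, with replicate 1 more than 2-fold above the next. The ratio of summed counts, scaled for depth, was 4.93 for day 1 over sham with a 95% interval from 2.80 to 9.35 that covers counting error only. In the edgeR test the day 1 rise had a log2 FC of 2.29 ± 0.75 (FDR = 0.0256). This call was lost without sham replicate 1, 3 or 4 or without day 1 replicate 2, where the FDR ran from 0.0532 to 0.0692, and on log2(TPM + 1) with limma (0.24, FDR = 0.424). The rise from day 1 to day 7 had a log2 FC of 3.52 ± 0.49 (FDR = 6.27e-05) and that from sham to day 7 one of 5.81 ± 0.64 (FDR = 3.55e-06), and both were still called when any single heart was left out. Without sham replicate 2 the log2 FC against sham was 3.92 on day 1 (FDR = 0.00668) and 7.44 on day 7, with sham then resting on 3 counts over 3 hearts. Without day 7 replicate 1 it was 2.88 for day 7 against day 1 and 5.17 for day 7 against sham. Day 7 replicate 1 was also the highest day 7 heart for Comp, Fmod, Sox9 and C1qtnf3. That heart was likewise the highest for the matrix genes Thbs1 (936 CPM, against 131 to 267 in the other 3) and Tnc (238 CPM, against 35.6 to 76.1), and the part of this in the values of Acan was not tested.

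Comp, cartilage oligomeric matrix protein, is a member of the thrombospondin family that binds collagen fibrils and is found in cartilage and tendon. It lies on chromosome 8 (70373558 to 70382066, plus strand). Sham hearts held 1.67, 6.32, 3.78 and 5.64 CPM, day 1 AMI hearts 3.71, 7.94, 3.93 and 3.50, and day 7 AMI hearts 98.1, 60.9, 75.2 and 76.6. Sham and day 1 overlapped, and the lowest day 7 heart was over 7 times the highest of all the others. Day 1 did not differ from sham beyond the spread between hearts, with a log2 FC of 0.12 and a 95% interval from -0.60 to 0.84 (edgeR FDR = 0.796). Day 7 was 16.2-fold above day 1 (log2 FC 4.02 ± 0.33, FDR = 7.00e-07) and 17.6-fold above sham (log2 FC 4.14 ± 0.33, FDR = 2.60e-07).

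Fmod encodes fibromodulin, a small leucine-rich proteoglycan that binds collagen and acts on fibril assembly in tendon and cartilage. The gene lies on chromosome 1 (134037254 to 134048277, plus strand), directly downstream of the sequence printed above. It was at 3.70, 6.98, 4.61 and 3.06 CPM in sham, at 3.33, 4.51, 2.91 and 2.52 CPM in day 1 AMI and at 94.4, 67.6, 57.0 and 56.7 CPM in day 7 AMI. The day 1 values lay low within the range of sham or under it, with a log2 FC of -0.48 and a 95% interval from -1.04 to 0.09 (edgeR FDR = 0.161). Its rise from day 1 to day 7, 20.7-fold with a log2 FC of 4.37 ± 0.26 (FDR = 3.68e-08), was the highest fold among the 9 members, and day 7 was 14.9-fold above sham (log2 FC 3.89 ± 0.25, FDR = 4.80e-08).

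Chad encodes chondroadherin, a leucine-rich repeat protein of cartilage that binds collagen and integrin, and lies on chromosome 11 (94565047 to 94569127, plus strand). The hearts held 0.678, 2.22, 0.679 and 0.383 CPM in sham, 1.07, 2.72, 1.31 and 0.536 CPM in day 1 AMI and 1.54, 1.66, 2.43 and 1.02 CPM in day 7 AMI, from 8 to 91 counts each. The 3 groups overlapped, with replicate 2 well above the others in both sham and day 1. Chad passed the test in no comparison. Its log2 FC from sham to day 7 was 0.71 with a 95% interval from -0.42 to 1.85 (edgeR FDR = 0.261), which includes both no change and a FC above 2. Without sham replicate 2, the heart with high erythroid genes, Chad was called higher on day 7 (log2 FC 1.51, FDR = 0.0222), and it was also called with limma on log2(TPM + 0.1) (1.38, FDR = 0.0219).

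Cilp, cartilage intermediate layer protein, is secreted into the matrix and is known to bind TGF-β1. It lies on chromosome 9 (65265180 to 65280605, plus strand). The sham hearts stood at 6.00, 12.0, 11.8 and 6.98 CPM, the day 1 AMI hearts at 11.7, 20.5, 15.0 and 11.0 CPM and the day 7 AMI hearts at 153, 197, 144 and 176 CPM. Sham and day 1 overlapped in a narrow band, and the day 7 hearts varied by only 1.37-fold from lowest to highest. Day 1 was 1.58-fold above sham (log2 FC 0.66 ± 0.23, edgeR FDR = 0.0332), short of a FC of 2, and day 7 was 11.5-fold above day 1 (log2 FC 3.52 ± 0.23, FDR = 1.10e-07) and 18.2-fold above sham (log2 FC 4.18 ± 0.25, FDR = 2.18e-08).

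Cilp2, the paralogue of Cilp, is also a secreted cartilage protein and lies on chromosome 8 (69880369 to 69887687, minus strand), on the same chromosome as Comp. Its levels were 0.574, 2.83, 1.16 and 9.61 CPM in sham, 1.68, 1.79, 2.81 and 1.51 CPM in day 1 AMI and 2.93, 3.52, 2.84 and 3.27 CPM in day 7 AMI. Sham replicate 4, with 201 counts, was the highest of the 12 hearts, and the sham range of 16.7-fold took in both other groups. Every day 7 heart was above every day 1 heart, by a small margin. No comparison passed the test over all hearts, and the log2 FC from sham to day 7 was -0.18 with a 95% interval from -1.39 to 1.03 (edgeR FDR = 0.799). Without sham replicate 4 the sign turned, and Cilp2 was called higher on day 7 with a log2 FC of 1.00 (FDR = 0.0420). The difference over all hearts, which was not called, also had the other sign on library size alone (0.22) and with limma on log2(TPM + 1) (0.34) and log2(TPM + 0.1) (0.93). On day 7 Cilp was at 68.7 TPM and Cilp2 at 1.24 TPM. Mean levels of Cilp and Cilp2 differed before then, at 2.60 and 0.945 TPM in sham and 5.06 and 0.65 TPM on day 1.

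The same sham heart was high in genes of atrial muscle, a list chosen after values were seen. Bmp10, an atrial growth factor, was at 66.3 CPM in sham replicate 4 and between 0.0369 and 9.28 CPM in the other 11 hearts. Sln, the atrial calcium pump regulator sarcolipin, was at 43.8 CPM there, against 4.12 to 17.4 CPM elsewhere, and Myl7, an atrial myosin light chain, at 86.8 CPM, against 10.5 to 57.6 CPM. Nppa, which encodes atrial natriuretic peptide and is known to be induced in injured ventricle, was at 555 CPM in sham replicate 4 and between 55.6 and 155 CPM in the other sham hearts. The summed level of the 6 atrial genes spanned 98.1 to 895 CPM over the sham hearts, 488 to 1272 CPM over those of day 1, and 1220 to 1867 CPM over those of day 7. The day 7 sums were mostly Nppa, at 1176 to 1803 CPM. Myl7 was at 10.5 to 34.0 CPM on day 7 and 10.7 to 86.8 CPM in sham. The median log2 FC of the 6 genes on day 7 against sham was -0.70. The part of atrial tissue in the Cilp2 values was not tested.

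**Figure D3:**
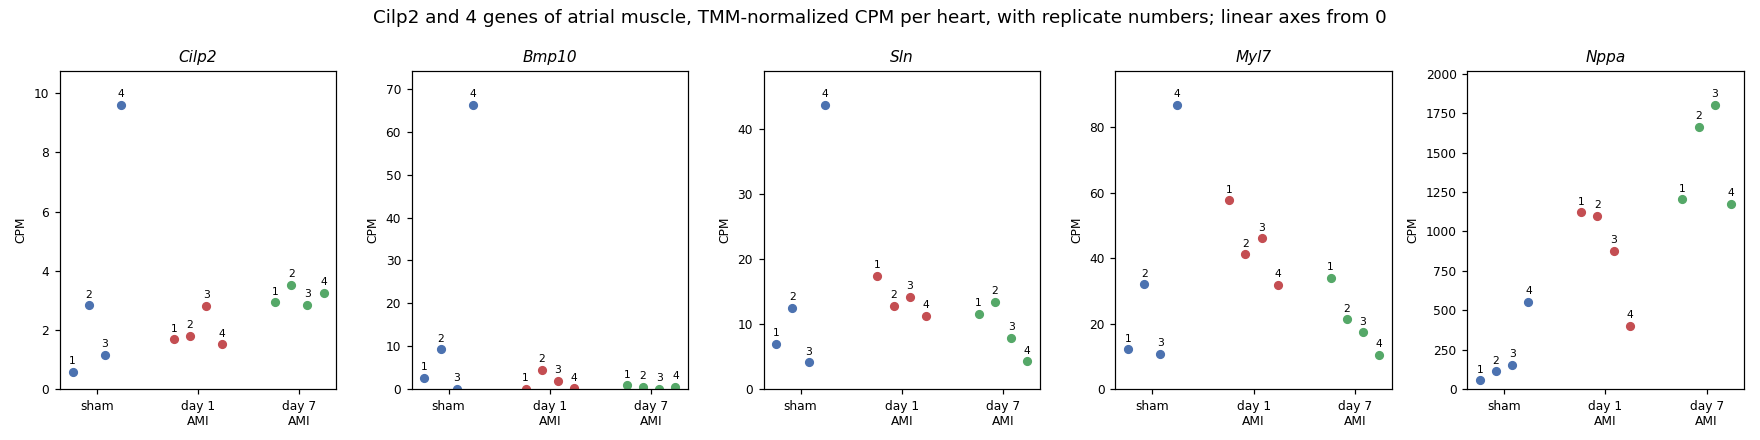
TMM-normalized CPM of Cilp2 and of the atrial genes Bmp10, Sln, Myl7 and Nppa in each heart, labelled by replicate number, on linear axes that start at 0. Sham replicate 4 is the highest of the 12 hearts for Cilp2 (9.61 CPM), Bmp10, Sln and Myl7, and the highest sham heart for Nppa.

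Cytl1 encodes a small secreted cytokine-like protein that is known to be made by chondrocytes, and lies on chromosome 5 (37735519 to 37739820, plus strand). It was the one member that fell. Its levels were 7.88, 11.5, 8.78 and 11.0 CPM in sham, 5.89, 7.46, 5.82 and 5.77 CPM in day 1 AMI and 4.35, 3.25, 4.83 and 3.37 CPM in day 7 AMI. No heart of one group overlapped those of another. Each step was a decrease of about the same size, with log2 FCs of -0.65 ± 0.16 (edgeR FDR = 0.00629) and -0.66 ± 0.17 (FDR = 0.00560), both short of a FC of 2. From sham to day 7 it was 2.48-fold lower (log2 FC -1.31 ± 0.17, FDR = 1.56e-05), and this was called. The size of the fall depended on scaling. On library size alone it was -0.92, and with limma on log2 TPM it was -0.70 or -0.75 by pseudocount, none of which reached a FC of 2, while the FDR stayed below 0.05. On the TPM scale sham (11.15 to 18.94) and day 1 (10.95 to 14.35) overlapped. Cardiomyocyte markers moved with Cytl1: their summed level was 100281 to 116512 CPM over the sham hearts, 61400 to 75893 CPM over those of day 1 and 53891 to 62700 CPM over those of day 7, with 7 of 11 called lower on day 7 against sham, and 0 of 11 on library size alone or with either limma fit. The part of this in the Cytl1 values was not tested.

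Angptl7, an angiopoietin-like secreted glycoprotein of the cornea and connective tissue, lies on chromosome 4 (148495183 to 148500460, minus strand). It was at 0.209, 1.60, 1.65 and 2.06 CPM in sham, at 1.03, 1.37, 1.24 and 0.662 CPM in day 1 AMI and at 7.49, 6.65, 12.8 and 6.39 CPM in day 7 AMI. Sham replicate 1 was far below the other sham hearts, and the first 2 groups overlapped. Day 1 against sham gave a log2 FC of -0.37 with a 95% interval from -1.31 to 0.58 (edgeR FDR = 0.529). Day 7 was 7.69-fold above day 1 (log2 FC 2.94 ± 0.41, FDR = 5.84e-05) and 5.96-fold above sham (log2 FC 2.58 ± 0.41, FDR = 8.53e-05).

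C1qtnf3 encodes CTRP3, a secreted protein of the C1q and TNF-related family that was first known from cartilage, and lies on chromosome 15 (10952332 to 10980150, plus strand), directly downstream of the sequence printed above. The sham hearts gave 1, 2, 0 and 2 counts and the day 1 AMI hearts 4, 0, 1 and 2. The day 7 AMI hearts gave 1209, 717, 580 and 977 counts, or 37.3, 27.7, 21.4 and 33.2 CPM. The ratio of summed counts, scaled for depth, was 528 for day 7 over day 1, with a 95% counting interval from 256 to 1315, and 516 for day 7 over sham, with one from 221 to 1589. Day 1 over sham was 0.976 with an interval from 0.267 to 3.90, so a change on day 1 within that interval was not detectable at this depth. Day 1 replicate 1 gave 4 of the 7 day 1 counts, and without it the ratio was 968 for day 7 over day 1 (331 to 4697) and 0.533 for day 1 over sham (0.0827 to 2.74). The gene was chosen by this rise, so these values are a description. All 8 sham and day 1 hearts held fewer than 5 counts, while Sox9, Comp, Cilp and Fmod had at least 29 counts in every heart.

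Genes that define cartilage itself were low. Of 13 such genes, 8 had enough counts to test. Of these, Col2a1, Col9a2, Col9a3 and Matn3 passed the filter only through the day 7 hearts and are described without a test. Col2a1, the type II collagen chain, had at most 3 counts in a sham heart and 9 in a day 1 heart, and was at 2.68 CPM ± 0.842 (SD, n = 4) on day 7. Col9a2, a chain of the type IX collagen that coats these fibrils, had at most 4 and 5 counts there and was at 5.04 CPM ± 1.19 on day 7. Col9a3, another type IX collagen chain, had at most 9 counts in a sham heart and 9 in a day 1 heart. It was at 0.629 CPM ± 0.189 on day 7. Matn3, a matrilin of cartilage, gave 0 counts in all 8 sham and day 1 hearts and 26, 25, 13 and 15 counts on day 7, at least 4.85-fold above the sham floor of 3 counts per library. Matn3, Col9a3, Hapln1, Col11a2 and Epyc are named after their values were seen. With these genes included, 3 of the 8 were called higher and 1 lower on day 7 against sham, and 4 higher and 0 lower against day 1. Since Col2a1, Col9a2, Col9a3 and Matn3 passed the filter through the day 7 hearts alone, nothing is read from these counts.

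Of the other tested cartilage genes, Cnmd, which encodes chondromodulin, was called lower on day 7 against sham (log2 FC -1.42 ± 0.36, edgeR FDR = 0.00353), a call that was lost with both limma fits (-0.43 and -0.74). On day 1 Cnmd was also called lower (-1.07, FDR = 0.0246), but not without sham replicate 1 (-0.76, FDR = 0.0983), sham replicate 4 or day 1 replicate 2 or 3, nor on library size alone or with limma. Hapln1, the link protein that holds aggrecan to hyaluronan, was at -0.28, Col11a2, a type XI collagen chain, at 0.05, and Epyc, a small proteoglycan of growth cartilage, at 1.06 (FDR = 0.0684) on day 7 against sham, and these 3 were called in no comparison. The summed level of the 13 genes spanned 4.27 to 6.53 CPM over the sham hearts, 4.25 to 5.46 CPM over those of day 1, and 11.0 to 15.6 CPM over those of day 7. Neither this list nor the members moved as one. On day 7, 6 members were called higher, with the call of Acan against sham not read as support, and Cytl1 was called lower. Chad was called only without sham replicate 2 or with limma on log2(TPM + 0.1). Cilp2 was called only without sham replicate 4.

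Among 14 regulators of cartilage and tendon development besides Sox9, 10 were tested. On day 1, 3 were called higher and 0 lower, which were the Runt-family factors Runx1, Runx2 and Runx3, with log2 FCs of 1.51 ± 0.27, 2.10 ± 0.27 and 2.27 ± 0.37 (edgeR FDR = 0.00067, 7.96e-05 and 0.000323). On day 7 against sham, 5 were called higher and 0 lower, with Scx, the tendon factor scleraxis, at 1.41 ± 0.19 (FDR = 2.69e-05) and Trps1 at 1.33 ± 0.13 (FDR = 1.71e-06) beside them. Runx2 and Runx3 held at most 19 and 17 counts in a sham heart and passed the filter through the AMI hearts. Nothing is therefore read from their calls against sham on either day. Their day 1 calls were also lost with limma on log2(TPM + 1) (0.57 and 0.85). From day 1 to day 7 only Runx1 was called (1.30 ± 0.24, FDR = 0.000639). The median log2 FC of the 10 was 0.67, 0.52 and 1.11 for day 1 against sham, day 7 against day 1 and day 7 against sham. The partners of SOX9 in cartilage, Sox5 and Sox6, named like Trps1 after their values were seen, were not called, with log2 FCs of 0.89 and -0.86 on day 7 against sham. Runx1 and Runx3 are also expressed in leukocytes, and 4 of 8 macrophage markers were called higher on day 1, with a summed level of 249 to 374 CPM in sham and 472 to 670 CPM in day 1 AMI. The part of those cells was not tested.

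Close relatives of the members were followed as a list of 26 genes, of which 23 were tested. On day 1 against sham, 3 were called higher and 0 lower with a median log2 FC of -0.13. From day 1 to day 7, 15 were called higher and 2 lower with a median of 1.48, and from sham to day 7, 12 were called higher and 1 lower with a median of 1.10. Thbs4, a thrombospondin like Comp that is also found in tendon, rose at each step, by 1.93 ± 0.23 and by 1.93 ± 0.21 on the log2 scale (edgeR FDR = 5.32e-05 and 8.96e-06). Thbs1 was called higher already on day 1 (log2 FC 2.86 ± 0.58, FDR = 0.00151), the day on which Comp showed a log2 FC of 0.12. Aspn, which encodes asporin, a leucine-rich proteoglycan like fibromodulin, was at -0.35 on day 1 against sham (FDR = 0.115) and rose by 3.82 ± 0.18 from day 1 to day 7 (FDR = 4.41e-09), where Fmod was at -0.48 and 4.37. The difference between these genes was not tested. C1qtnf6 was at 13.1 CPM ± 1.74 in sham, where C1qtnf3 was at 0.0575 CPM, and was 2.91 ± 0.15 higher on the log2 scale on day 7 (FDR = 7.15e-09).

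Of 9 proteases that cut aggrecan or COMP, 3 were called higher on day 1 and 0 lower, 1 higher and 1 lower from day 1 to day 7, and 3 higher and 1 lower from sham to day 7. The median log2 FC was 0.78, -0.14 and 0.25 in this order. Adamts4, an aggrecanase, was higher on day 1 (log2 FC 4.03 ± 0.72, edgeR FDR = 0.000665), when Acan was still below 1 CPM, and was at 3.38 ± 0.72 on day 7 against sham (FDR = 0.00104). The sham hearts ran from 0.0956 to 3.53 CPM for Adamts4. It passed the filter through the AMI hearts, so nothing is read from its calls against sham. Adamts12, which cleaves COMP, rose from day 1 to day 7 by 2.57 ± 0.18 on the log2 scale (FDR = 1.46e-07). Mmp3, stromelysin, was higher on day 1 (1.43 ± 0.40, FDR = 0.0103) and was called lower than sham on day 7 (-1.10 ± 0.42, FDR = 0.0362). The day 7 call was lost in 11 of 20 alternatives, among them those without sham replicate 1 (-0.76, FDR = 0.144) or sham replicate 2 (-0.80, FDR = 0.131), which left 2 proteases higher and 0 lower. Mmp13, the collagenase, was higher on day 7 against sham (1.07 ± 0.29, FDR = 0.00550), and without sham replicate 1 or 2 or day 7 replicate 4 its log2 FC of 0.96 to 0.99 was short of a FC of 2.

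**Figure D4:**
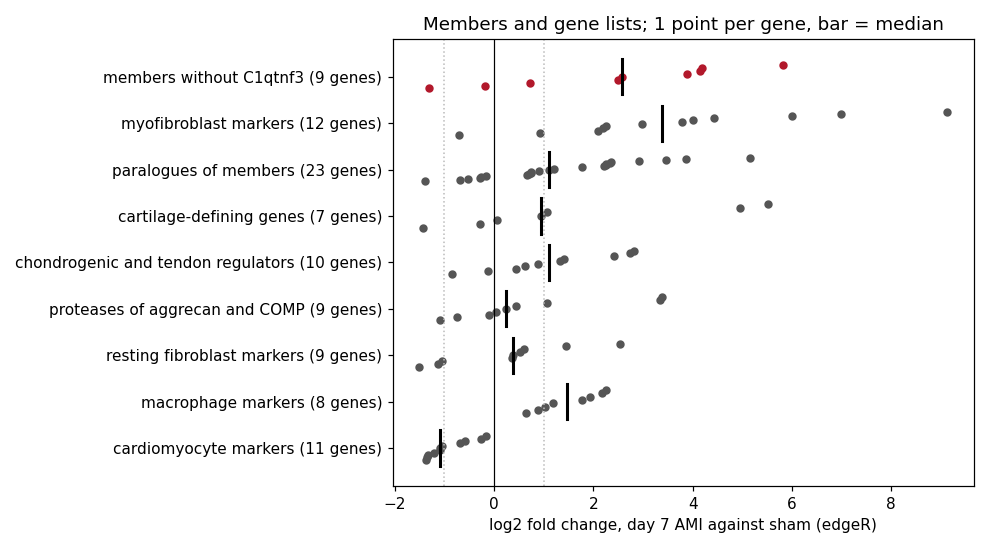
Log2 FC from edgeR on day 7 AMI against sham (horizontal axis), with 1 point per gene and a bar at the median of each list, dotted lines marking a FC of 2, and the tested members without C1qtnf3 in red at the top. Matn3, at 0 counts in sham, is not drawn. The cartilage-defining list includes Col2a1, Col9a2 and Col9a3, which passed the filter only through day 7. The member median is 2.58, the myofibroblast median 3.38 and the cardiomyocyte median -1.09.

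The 6 members called higher on day 7 were so beside genes of activated fibroblasts. Of 12 myofibroblast markers, 6 were called higher and 1 lower on day 1, 9 higher and 0 lower from day 1 to day 7, and 10 higher and 0 lower from sham to day 7. Their summed level was 514 to 777 CPM in sham, 1403 to 1895 CPM in day 1 AMI and 6330 to 13320 CPM in day 7 AMI, and none was at 0 in any group. Postn, which encodes periostin, was at 25.8 CPM ± 2.30 in sham, and was higher by 1.76 ± 0.17 on the log2 scale on day 1 (edgeR FDR = 1.07e-05) and by a further 4.23 ± 0.18 on day 7 (FDR = 2.12e-09). Cthrc1, a collagen-regulating secreted protein of the infarct fibroblast, rose by 4.18 ± 0.58 and then by 4.94 ± 0.31 (FDR = 0.000113 and 6.14e-08). Cthrc1 had at most 6 counts in a sham heart and passed the filter through the AMI hearts. Tnc, tenascin C, rose by 6.77 ± 0.63 on day 1 (FDR = 9.61e-06) and was not called between day 1 and day 7 (0.22, FDR = 0.694). Acta2 and Lrrc15, named after their values were seen, did not follow these genes. With TMM over all hearts Acta2 was called in no comparison, at 0.92 on day 7 against sham (FDR = 0.0394). Lrrc15 was the marker called lower on day 1 (-1.33 ± 0.24, FDR = 0.00075) and was at -0.70 on day 7 against sham (FDR = 0.0208). Of 9 markers of resting fibroblasts, 2 were called higher and 3 lower on day 7 against sham, with Tcf21 at 1.45 ± 0.15 (FDR = 1.88e-06) and Clec3b at -1.13 ± 0.19 (FDR = 0.000179). These counts depended on scaling, with 3 higher and 1 lower on library size alone and 5 higher and 0 lower with either limma fit. Clec3b was short of a FC of 2 without sham replicate 2 or without day 7 replicate 2 (-0.98 each), on library size alone (-0.74) and with the limma fits (-0.58 and -0.59). Of 8 macrophage markers, 6 were called higher on day 7 against sham and 0 between day 1 and day 7. The part of the number of these cells in the members' values was not tested.

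Over the 12 libraries the genes outside the members whose log2 CPM followed a member most closely are given by Pearson's r as a description. All libraries share the same 3 groups, so r mostly reads the step between them. For C1qtnf3 they were Col8a2 (r = 0.995), Gxylt2 (0.991) and Mmp23 (0.990), for Cilp Col6a1 (0.990), Lgals9 and Icam2, and for Comp the microfibril gene Mfap4 (0.985), Pdgfrl and Zfp467. Fmod was followed by Antxr1 (0.987), Nbl1 and Arhgap19, Acan by Glis2 (0.986), the membrane metalloproteinase Mmp14 and Npdc1, and Sox9 by Zfp462 (0.986), Sulf1 and Anxa1. Angptl7 was nearest to Plekhg5 (0.961), Pear1 and Iqce, and Cytl1 to Pex16 (0.978), Ndufa7 and Timm8b, of which the last 2 encode mitochondrial proteins. The 2 members that were not called had weaker neighbours, with Sema7a (0.856), R74862 and Tpsb2 for Chad and Ccdc28b (0.835), 5430419D17Rik and Pcdhgc4 for Cilp2.

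Once the group means were taken out, the members did not vary as one. Over the 12 libraries the highest r of deviations was 0.88 for Acan with Fmod, then 0.79 each for Comp with Cytl1 and Comp with Angptl7, 0.77 for Chad with Fmod and 0.72 for Sox9 with Fmod. Comp and Cytl1 therefore varied together between hearts of one group although they moved in opposite directions between groups. For both, sham replicate 1 was the lowest sham heart and day 1 replicate 2 the highest day 1 heart, and r without these hearts was not computed. The lowest r of deviations was -0.51 for Cilp with C1qtnf3. Acan held 0 to 11 counts in sham hearts, and C1qtnf3 held 0 to 4 in sham and day 1 hearts. Values of r for pairs with these genes therefore rest partly on few counts. Day 1 replicate 2 was the highest day 1 heart for Comp, Cilp, Chad, Sox9, Fmod, Acan, Cytl1 and Angptl7. It was also the highest day 1 heart for Prg4, the lubricin of joint and serosal surfaces, at 160 CPM against 56.2 to 64.3 CPM in the other 3, and for Postn, at 118 CPM against 73.5 to 79.4 CPM. The part of the tissue taken with that heart was not tested.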

How the data were processed

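RNA of whole hearts from 12 mice, in 3 groups of 4 taken from the labels, was sequenced by the authors after random-hexamer cDNA synthesis as 150-bp paired-end reads. The authors trimmed reads with Cutadapt, aligned them with STAR 2.4.0j to mm10 (Ensembl GRCm38), and ran RSEM, and per the submitters' processing notes base calls were made with CASAVA 1.8. The authors deposited raw counts per gene, which are whole numbers without normalization, and TPM from RSEM, rounded to 2 decimals. Which tool made the raw counts, whether it used strand, and how it treated reads with several alignments are not given in the sources used here. In GENCODE M21 no exon of a member overlapped another gene on either strand. Hearts that share a replicate number are different mice.

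Counts of all genes were fitted with edgeR 4.0.16 in R 4.3.3 (TMM, filterByExpr by group, quasi-likelihood F test, 1 fit of 12 libraries), with Benjamini-Hochberg FDR over 15306 genes. Standard errors are those implied by the F statistic, and log2 CPM used a prior count of 2. Counting intervals are exact and cover counting error only. Alternatives were RLE size factors, library size alone, no filter, DESeq2 1.42.0, limma 3.58.1 on log2(TPM + 1) and log2(TPM + 0.1), only the groups compared, a replicate block, no FC minimum, and each heart left out. On simulated data for day 7 AMI against sham with 15306 genes and 200 changed, edgeR recovered 200 with 2 false calls, DESeq2 200 with 2 and limma 200 with 0. The changed genes were taken only from well-expressed genes and given 1 large change, up or down. Recovery of small changes or of genes with few counts, such as Chad, Cilp2 or Acan in sham, was therefore not examined. No library repeated another, since chi-square per degree of freedom within a group was at least 8.84.

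The members and gene lists were chosen with earlier results of these data known, and the atrial list after values were seen. Named from each list were up to 4 genes with the greatest change on day 7 among those called whose highest group mean was 1 CPM or more, and for each member the 3 genes with the highest r. Where a list had no gene called, up to 2 with the highest level were named. Some list genes go unnamed for space. Promoter sequence is that of RefSeq, build GRCm38.p6. Python 3.11.15 with matplotlib 3.10.9 drew the figures. Other experiments of the study were not analysed here.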

Additional observations from a re-analysis of the deposited data

Results flagged for a closer look

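One heart stood far from the other 3 of its group in 4 of the 30 sets of hearts tested with Dixon's ratio, which is the gap to the nearest heart divided by the range of the group, at its 95% critical value for 4 hearts. Chance flags about 1 in 20. The ratios were taken on log2 CPM, so they do not follow from the CPM printed beside them. On CPM the set of flagged hearts would differ, and the low Angptl7 heart would not be among them. Day 1 replicate 2 was high for Comp (ratio 0.861, 7.94 CPM against 3.50 to 3.93 in the other 3), Sox9 (0.936, 5.52 CPM against 3.17 to 3.29) and Cytl1 (0.921, 7.46 CPM against 5.77 to 5.89). These 3 ratios come from 1 heart and are not separate observations. Sham replicate 1 was low for Angptl7 (0.881, 0.209 CPM against 1.60 to 2.06). Without it the day 7 rise of Angptl7 over sham stayed called, as it did without any other single heart, with a log2 FC between 2.23 and 2.82.

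The change after AMI differed between the time points for 6 members. In edgeR's quasi-likelihood test, the log2 FC against sham was greater on day 7 than on day 1 by 1.75 for Sox9 (FDR = 6.99e-05), 2.94 for Angptl7 (FDR = 5.84e-05), 3.52 for Acan (FDR = 6.27e-05), 3.52 for Cilp (FDR = 1.10e-07), 4.02 for Comp (FDR = 7.00e-07) and 4.37 for Fmod (FDR = 3.68e-08). Since both time points share the sham hearts, this difference is the same quantity as day 7 against day 1, and it was positive in all 4 day 7 hearts for each of the 6.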

How the results depend on the processing

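Each member but C1qtnf3 was compared in 3 comparisons under every alternative. Over the 8 other settings that keep the FC minimum, 210 of the values kept their side of the threshold and, where called, their direction, 4 lost a call and 2 gained one. With single hearts left out 318 kept these, 4 lost a call, 1 gained one and 1 was called with the opposite sign. The last was Cilp2 on day 7 against sham, 1.00 without sham replicate 4, in a range from -0.53 to 1.00 over single hearts left out. The count of 6 members called higher from day 1 to day 7 held in every fit, and for day 7 against sham it was 6 or 7. On day 1 against sham the count of members called higher was 2 on library size alone, 0 with limma on log2(TPM + 1), 3 without a FC minimum, and 0 to 1 with single hearts left out (0 without sham replicate 1, 3 or 4 or day 1 replicate 2). Cytl1 was not called lower on day 7 against sham on library size alone or with either limma fit, which gave 0 members, and without a FC minimum 1 member was called lower in each of the other 2 comparisons.

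Over all genes, removing the FC minimum gave 3360 higher and 3043 lower on day 1 against sham, 3701 and 3496 from day 1 to day 7, and 4728 and 4353 on day 7 against sham. Genes called lower on day 1 against sham numbered 217 on library size alone, 63 with limma on log2(TPM + 1) and 145 on log2(TPM + 0.1). From day 1 to day 7 the limma fits called 130 and 208 lower. On day 7 against sham the lower calls were 318 on library size alone and 111 and 189 with limma, and the higher calls were 3633 on library size alone and 4163 with limma on log2(TPM + 0.1). These 3 settings moved the median of all genes on day 7 against sham by 0.40, 0.41 and 0.54 on the log2 scale, so the fall of Cytl1 is smaller on them.

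Replicate numbers did not pair the hearts: deviations from group means correlated between -0.244 and 0.229 over 12 pairs, and 2 of 12 libraries were closest to their own number. A fit with a replicate block called 1180 genes higher on day 1 against sham, 1304 from day 1 to day 7 and 2341 on day 7 against sham, and changed no member's call. Depth limits Acan in sham and C1qtnf3 in sham and day 1, and Chad held 8 to 91 counts in a heart. With 4 hearts a group, intervals for Chad and Cilp2 include a FC of 2.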

Other observations

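Other cell types that a whole heart holds were followed with the same tests, as values beside the members. Of 7 tested neutrophil markers, 3 were called higher and 0 lower on day 1 against sham, and 0 higher and 5 lower from day 1 to day 7. Their summed level was 2.39 to 55.8 CPM in sham, 39.7 to 144 CPM in day 1 AMI and 7.61 to 38.5 CPM in day 7 AMI. The lower calls from day 1 to day 7 numbered 3 to 7 with single hearts left out. In a fit of sham and day 7 hearts alone, 3 of the 7 neutrophil markers passed the filter on low counts. The others passed it through the day 1 hearts, so nothing is read from the calls of this list. Of 7 endothelial markers, 1 was called higher from day 1 to day 7, Cdh5 at a log2 FC of 1.01 that fell short of a FC of 2 in 7 alternatives, and 0 in the other comparisons, with summed levels of 889 to 1022, 766 to 815 and 1197 to 1331 CPM. Of 6 smooth muscle and pericyte markers, 1 was called higher and 1 lower on day 7 against sham. Of 4 tested skeletal muscle markers, 1 was called higher (Tnnt3, log2 FC 2.79) and 1 lower (Ckm, -1.17) on day 7 against sham. The summed level of the list was 2582 to 3233 CPM in sham and 1146 to 1403 CPM in day 7 AMI. Ckm is also expressed in heart muscle, so this level is not read as skeletal muscle. The Ckm call was lost on library size alone (-0.77) and with both limma fits. Of 3 tested adipocyte markers, 0 were called in any comparison. Of 5 erythroid markers, 3 were called lower on day 1 and on day 7 against sham, with 0 to 5 when single hearts were left out and 0 in either comparison without sham replicate 2, and that heart held 1736 CPM of the globin gene Hba-a1 where the other 11 hearts held 87.5 to 461 CPM.

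Acan was the member whose day 7 hearts varied most, with the highest 4.66-fold above the lowest, beside 1.37-fold for Cilp and 1.24-fold for Cilp2.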
